A study of Mus musculus with 10 samples.

Results

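The genes described were the proteasome subunits, their activators, inhibitor and assembly factors, and Nfe2l1, a transcription factor that controls subunit genes. They were chosen as protein-coding records whose symbol starts with Psma, Psmb, Psmc, Psmd, Psme, Psmf or Psmg followed by a digit, or is Nfe2l1, which gave 51 of the 54347 gene records in the table. RNA was measured in iBAT (interscapular brown adipose tissue, a fat depot on the upper back that burns fuel for heat) of 5 ΔGm15551 mice (mice 1, 2, 4, 5 and 7) and 5 wild type mice (mice 2, 3, 5, 6 and 7). ΔGm15551 mice carry a germline CRISPR/Cas9 deletion that includes exon 1 of the lncRNA gene Gm15551, made on the C57BL/6N background of the wild type mice and backcrossed to wild type animals. All 10 mice were 12 weeks old and had been kept alone at 4 °C over the last 24 h before dissection, so that no mouse of the table was kept warm and effects of cold were not measured. The chow diet is stated for the ΔGm15551 line used for transcriptomics.

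The proteasome degrades proteins that carry ubiquitin chains. Its core, the 20S particle, is a barrel of outer alpha rings, which gate the entrance, and inner beta rings, where the subunits encoded by Psmb5, Psmb6 and Psmb7 cut the substrate, and the 19S cap binds, deubiquitinates and unfolds it (the lid and the ATPase-bearing base). NRF1, the product of Nfe2l1, is held in the endoplasmic reticulum and normally degraded, and when proteasome activity falls short it is released, processed by the protease DDI2 and the glycanase NGLY1, and activates subunit genes through antioxidant response elements. In brown fat it is known as a factor that raises proteasome capacity during cold.

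The antioxidant response element was searched for as TGACNNNGC on both strands of the RefSeq promoter windows of GRCm38.p6, which run from 250 bases before to 50 bases after a gene's annotated start. Windows of 43 of the 51 genes were searched. None was searched for Psma8, Psmb1, Psmb2, Psmb7, Psmc3, Psmd3, Psmd7 and Psmg2, which need not mean that the reference lacks one. The motif occurred in 6 of the 43 (13.95%), and in 3781 of all 27025 genes with an entry (13.99%), so that the shares were close. The 43 genes and the 27025 genes may not have been chosen by the same rule, which limits this comparison. Among the standard subunits, it lay in the windows of Psmb5, Psmb6, Psmc6 and Psmd12 (4 of 25), and it was also found for the assembly factor gene Psmd9 and the activator gene Psme4. The 250 bases before the start are shown for both catalytic subunits of the 4, with the motif in capitals. In Psmb5 (chr14:54617996-54618245, minus strand) it began 47 bases before the start, and in Psmb6 (chr11:70525107-70525356, plus strand) it began 9 bases before the start.
Psmb5: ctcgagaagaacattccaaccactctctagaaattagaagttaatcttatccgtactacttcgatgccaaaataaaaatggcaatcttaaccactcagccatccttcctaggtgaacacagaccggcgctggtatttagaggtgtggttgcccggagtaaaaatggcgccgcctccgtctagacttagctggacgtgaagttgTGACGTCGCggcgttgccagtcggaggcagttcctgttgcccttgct
Psmb6: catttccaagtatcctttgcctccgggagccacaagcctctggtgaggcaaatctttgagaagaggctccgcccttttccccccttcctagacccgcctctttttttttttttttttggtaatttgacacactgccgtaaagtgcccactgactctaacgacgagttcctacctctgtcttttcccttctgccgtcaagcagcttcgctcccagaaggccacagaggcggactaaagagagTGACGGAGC
The copies of Psmc6 (TGACTTAGC) and Psmd12 (TGACACAGC) were on the opposite strand, 227 and 247 bases before the start. Such a match describes letters only, and whether a factor binds there was not measured.

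The libraries held 12593971 to 14438903 counts in ΔGm15551 and 9680976 to 15771170 in wild type, of which the 51 genes took 0.399% to 0.472%. Gm15551 had 0 counts in each ΔGm15551 mouse and at most 7 in wild type, with 0 also in wild type mouse 7, which leaves that mouse without a sign of its genotype in this gene. The 7 brown adipocyte markers (Ucp1, Cidea, Dio2, Elovl3, Ppargc1a, Cox8b and Prdm16) had sums of 10825 to 15176 CPM (counts scaled to a common library total by TMM) in the deletion mice and 10843 to 13776 CPM in the wild type mice. The 10 skeletal muscle markers ranged from 1.07 to 1566 CPM in the deletion mice and from 1.37 to 2616 CPM in the wild type mice, and were highest in wild type mouse 7, ΔGm15551 mouse 4 and ΔGm15551 mouse 1. In bulk tissue, fewer cells of a type and less RNA per cell cannot be told apart.

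Whether loss of Gm15551 altered the proteasome programme of cold-exposed iBAT was asked first. Neither Nfe2l1 nor any proteasome gene passed the test for a difference between the genotypes. Of the 51 genes, 49 passed the filter on low counts, and 0 of these 49 had an adjusted p under 0.05 in edgeR's quasi-likelihood test, as did 0 of the 13732 genes tested (0.0%). At an unadjusted p under 0.05 there was 1 of 49 (2.04%), Psma6, against 1.59% of all genes tested. In none of the 49 were the groups free of overlap, compared with 0.226% of all genes for higher and 0.0947% for lower values in ΔGm15551. The log2 fold change (log2FC, ΔGm15551 over wild type) had a median of -0.026 over the 49 genes, with 16 positive and 33 negative, and lay between -0.25 (Psma6) and 0.077 (Psmg4). That median ran from -0.056 to -0.013 with 1 mouse left out. Over all genes tested the median was -0.00087, with 6830 positive and 6902 negative. The size of the difference had a median of 0.043 on the log2 scale for the 49 genes and of 0.094 for all genes.

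The precision was enough to bound these differences. For all 31 standard subunits (those of the 20S rings and the 19S cap), the 95% confidence interval of limma-voom lay within 0.5 on the log2 scale on either side of 0, the widest bounds being -0.48 and 0.43. Within 1 on the log2 scale, which is a change of up to 2-fold, lay 48 of the 49 genes. The exception was Psme2b, a near-copy of Psme2 with 4 to 24 counts per mouse, at -1.34 to 0.69.

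**Figure D1:**
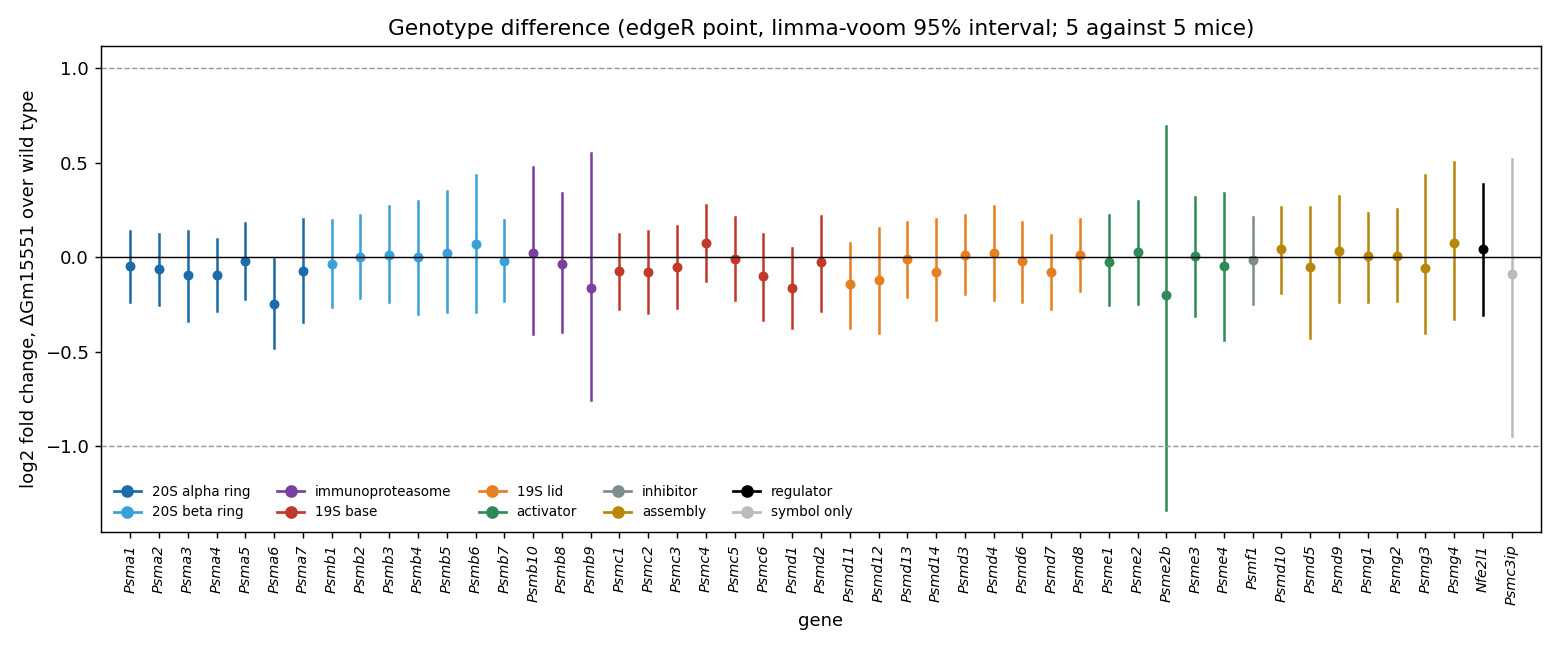
Log2 fold change of each of the 49 tested genes (points, edgeR) with its 95% confidence interval (bars, limma-voom), ordered by role, and dashed lines at a 2-fold change. All intervals but those of Psme2b stay inside the dashed lines, and that of Psma6 alone does not include 0.

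Nfe2l1 (ENSMUSG00000038615.17, chromosome 11, 96817414 to 96829968, minus strand of GRCm38) was the regulator among the genes chosen. Its normalised expression in ΔGm15551 was 369 CPM in mouse 1, 586 in mouse 2, 592 in mouse 4, 460 in mouse 5 and 547 in mouse 7. In wild type it was 450 CPM in mouse 2, 587 in mouse 3, 536 in mouse 5, 520 in mouse 6 and 384 in mouse 7. The groups overlapped over nearly their whole range, and each had 1 mouse below 400 CPM. The means were 511 ± 95.1 CPM and 496 ± 79.4 CPM (SD, n = 5 each), a log2FC of 0.043 (SE 0.16, edgeR unadjusted p = 0.789). The 95% confidence interval of limma-voom was -0.31 to 0.39. In the 6 mice whose numbers occur in both groups the log2FC was 0.22, with an edgeR unadjusted p = 0.269. Per length, Nfe2l1 stood at 91.1 ± 14.6 CPM per kb of merged exons in wild type (SD, n = 5), and its mean over all 10 mice, 92.5 CPM per kb, was higher than that of 96.7% of the genes tested. A level per kb depends on which exons are counted, and with the longest transcript it was 106 CPM per kb in wild type.

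The 7 alpha ring genes, Psma1 to Psma7, all had a negative log2FC, with a median of -0.076, and 6 of them had an unadjusted p of 0.329 or more. Psma6 was the exception. Its values in ΔGm15551 were 199 CPM in mouse 1, 157 in mouse 2, 192 in mouse 4, 169 in mouse 5 and 194 in mouse 7, and in wild type 234 CPM in mouse 2, 206 in mouse 3, 241 in mouse 5, 190 in mouse 6 and 210 in mouse 7. Wild type mouse 6 fell among the ΔGm15551 mice, and the other wild type mice lay above all of them. The log2FC of Psma6 was -0.25 (SE 0.11, edgeR unadjusted p = 0.0477, adjusted p = 0.9998), and -0.40 in the 6 mice whose numbers occur in both groups. Leaving out 1 mouse took the unadjusted p above 0.05 for 7 of the 10 mice, all but ΔGm15551 mouse 1 and wild type mice 6 and 7. Per length, Psma6 was also the highest of the ring in wild type, at 175 ± 17.2 CPM per kb, and Psma2 the lowest at 25.5 ± 1.39 CPM per kb (SD, n = 5). The other levels per kb of the ring lay between these.

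The beta ring carries the catalytic sites, and its 7 genes had a median log2FC of -0.0014, with 3 positive and 4 negative. Psmb5, whose product has the chymotrypsin-like site, was read in ΔGm15551 at 216, 158, 153, 185 and 158 CPM in mice 1, 2, 4, 5 and 7. In wild type it was at 202, 127, 177, 155 and 196 CPM in mice 2, 3, 5, 6 and 7. The lowest value was that of wild type mouse 3 and the highest that of ΔGm15551 mouse 1, and the log2FC was 0.023 (SE 0.15, edgeR unadjusted p = 0.876). Of the 31-base words in the annotated transcripts of Psmb5, 71.7% recur in other gene records, with the most matches in Gm3375. Reads may have been split between these records.

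Psmb6, for the caspase-like site, had 106, 83.7, 76.3, 120 and 86.2 CPM in ΔGm15551 mice 1, 2, 4, 5 and 7, and 98.1, 66.4, 88.4, 79.7 and 118 CPM in wild type mice 2, 3, 5, 6 and 7. Its highest value was 1.81 times its lowest, the widest spread among the standard subunits, and each genotype had high and low mice (log2FC 0.068, SE 0.17, edgeR unadjusted p = 0.689). Psmb7, for the trypsin-like site, was more even, from 201 to 222 CPM in ΔGm15551 with a median of 208 and from 189 to 240 CPM in wild type with a median of 211 (log2FC -0.023). On the scale per length in wild type, Psmb5 was the highest standard subunit at 191 ± 34.5 CPM per kb, and Psmb1, a structural subunit of the ring, was the lowest of its ring at 21.5 ± 2.51 CPM per kb (SD, n = 5). Over the 31 standard subunits the wild type levels ran from 13.3 to 191 CPM per kb, with a median of 40.2 over the genes' means. The order depends on the length used, since with the longest or the principal transcript Psma6 was higher than Psmb5 (207 against 191 CPM per kb).

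**Figure D2:**
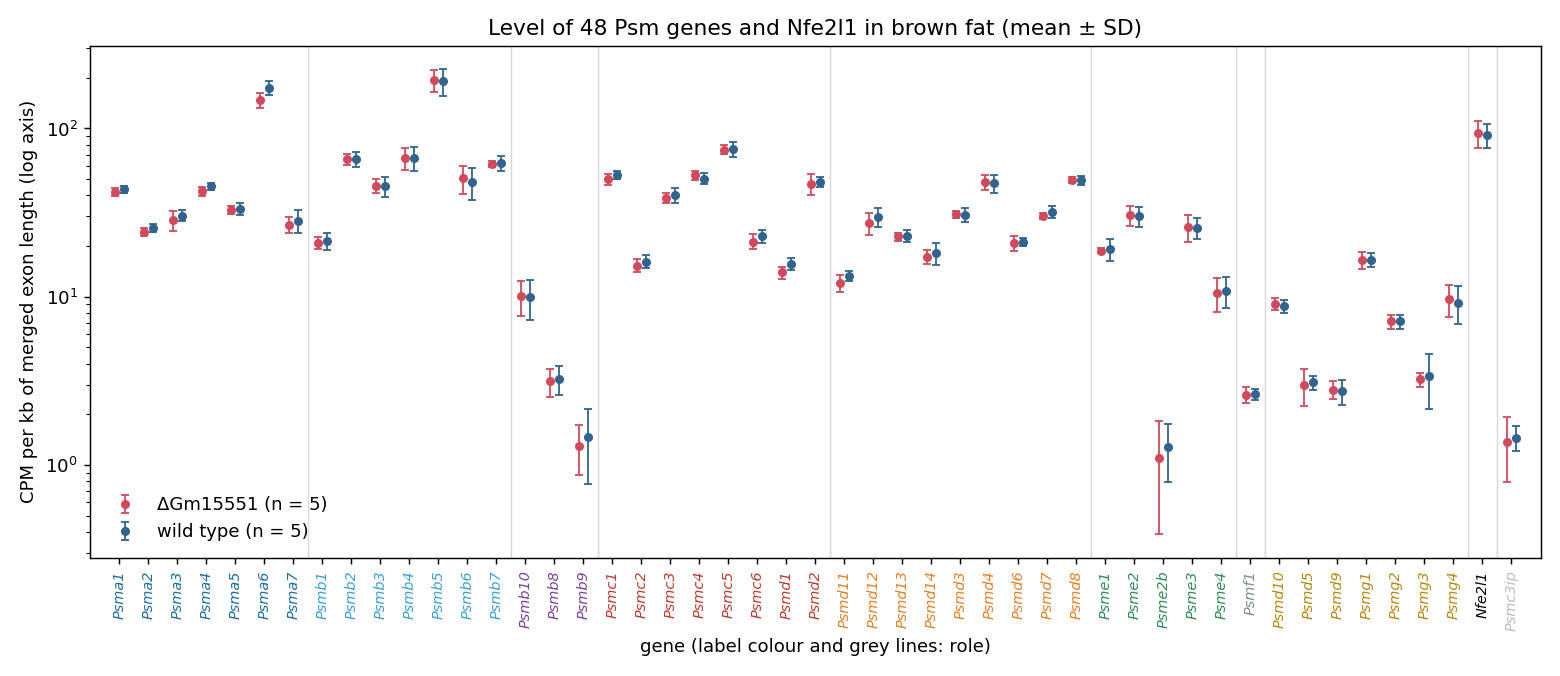
Mean level per kb of merged exon length in ΔGm15551 (red) and wild type (blue), with SD over 5 mice each and a log axis, for the 49 tested genes by role. The immunoproteasome genes Psmb8, Psmb9 and Psmb10 lie at 1.46 to 9.93 CPM per kb in wild type, below each of the 31 standard subunits.

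The immunoproteasome is a form of the core in which Psmb8, Psmb9 and Psmb10 take the places of Psmb5, Psmb6 and Psmb7, and it is abundant in immune cells and after interferon. All 3 genes were low beside the standard subunits in both genotypes, though Psmb10 and Psmb8 stood above 76.2% and 50.3% of all genes tested per kb, and Psmb9 above 30.3%. Psmb8 stood at 13.7, 9.73, 8.26, 11.3 and 10.1 CPM in ΔGm15551 mice 1, 2, 4, 5 and 7 and at 13.1, 7.71, 11.1, 10.1 and 12.6 CPM in wild type mice 2, 3, 5, 6 and 7. Per kb of merged exons this was 1.61% ± 0.107 (SD) of Psmb5 in the 5 ΔGm15551 mice and 1.69% ± 0.0470 (SD) in the 5 wild type mice, and all 10 lay between 1.43% and 1.73%. The share depends on the length used, with means of 2.86% and 2.995% by the longest transcript and of 3.35% and 3.51% by the principal transcript. The ratio of Psmb8 to Psmb5 varied less between mice than either gene did.

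Psmb9 was the most variable of the 3. It was at 5.43, 4.55, 3.05, 7.13 and 3.73 CPM in ΔGm15551 mice 1, 2, 4, 5 and 7, and at 9.58, 2.74, 5.15, 4.49 and 4.83 CPM in wild type mice 2, 3, 5, 6 and 7, where mouse 2 stood above all others. Per kb of merged exons it was 2.05% to 4.998% of Psmb6, which became 1.34% to 3.27% by the longest and 2.36% to 5.77% by the principal transcript. Psmb10 was 11.9% to 21.5% of Psmb7 by merged exons, 12.8% to 23.3% by the longest and 5.23% to 9.49% by the principal transcript. The log2FC was -0.039 for Psmb8, -0.16 for Psmb9 and 0.020 for Psmb10 (edgeR unadjusted p = 0.821, 0.604 and 0.924), and the groups overlapped in all 3. Psmb9 overlaps Tap1 on the other strand, and the library kit does not mark strand, so that reads of the shared stretch cannot be told apart.

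Markers of immune cells and of the interferon response were read beside them. The 7 immune cell genes read here gave sums of 37.2 to 64.0 CPM in ΔGm15551 mice and of 40.3 to 69.2 CPM in wild type mice. Of these, 6 were tested, 0 with an unadjusted p under 0.05 (edgeR) and all 6 with a negative log2FC (median -0.11), and Cd3e, which defines T cells, fell under the filter at means of 0.340 CPM or less. Of 12 genes of the interferon response and MHC class I presentation, 0 had an adjusted p under 0.05 and 1, Ifit1, had an unadjusted p of 0.0449 with a log2FC of 0.50 (edgeR), against the 1.59% of all genes under 0.05.

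The base of the 19S cap holds 6 ATPases that unfold the substrate, Psmc1 to Psmc6, and the scaffolds Psmd1 and Psmd2. Their log2FC had a median of -0.065, with 7 of 8 negative, and 0 of 8 had an unadjusted p under 0.05. The lowest log2FC was that of Psmd1, which ran from 92.4 to 111 CPM in ΔGm15551 (median 97.9) and from 106 to 125 CPM in wild type (median 108). The groups overlapped, with ΔGm15551 mice 2 and 4 above the 3 lowest wild type mice (log2FC -0.17, SE 0.10, edgeR unadjusted p = 0.125). On the per-length scale in wild type, Psmc5 was the highest gene of the base at 75.6 ± 7.77 CPM per kb and Psmd1 the lowest at 15.7 ± 1.28 CPM per kb (SD, n = 5). By the longest transcript Psmc2 was the lowest of the base (23.5 CPM per kb, with Psmd1 at 36.6), and by the principal transcript Psmc6 (35.8 CPM per kb).

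The lid, which holds the deubiquitinase Psmd14, was described with the ubiquitin receptor Psmd4. Its 9 genes had a median log2FC of -0.020, 3 positive and 6 negative, and 0 of 9 had an unadjusted p under 0.05. Psmd8 was the steadiest of the standard subunits. It ran from 145 to 159 CPM in ΔGm15551 (median 148) and from 139 to 162 CPM in wild type (median 154), so that the highest of the 10 mice was 1.16 times the lowest. Psmd8 was also the highest of the lid per length, at 49.1 ± 3.18 CPM per kb in wild type, and Psmd11, a scaffold of the lid, was the lowest at 13.3 ± 0.862 CPM per kb (SD, n = 5). By the principal transcript Psmd4 was above Psmd8 (99.6 against 97.5 CPM per kb). Psmd11 had 65.5 to 88.3 CPM in ΔGm15551 (median 79.5) and 77.1 to 92.2 CPM in wild type (median 84.8), with overlapping groups (log2FC -0.14, SE 0.11, edgeR unadjusted p = 0.200).

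Activators open the alpha gate without the 19S cap. Psme2, which pairs with Psme1 in an interferon-induced activator, was the highest of the class per length in wild type (30.0 ± 3.93 CPM per kb, SD, n = 5). It ran from 44.3 to 59.8 CPM in ΔGm15551 and from 43.8 to 60.4 CPM in wild type, a log2FC of 0.024 (SE 0.12). Of its 31-base words, 33.5% recur elsewhere, with the most matches in Psme2b, so that reads may have been split between both. Psme3 and Psme4, which encode nuclear activators, had log2FC of 0.0070 and -0.049.

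Psmf1, for an inhibitor and partner of the 20S core, was low and even, at 14.9 to 19.5 CPM among ΔGm15551 mice and 15.3 to 18.3 CPM among wild type mice (log2FC -0.014). The assembly factors had a median of 7.13 CPM per kb in wild type, below that of the standard subunits. Psmg1, a chaperone of the alpha ring, was the highest at 16.6 ± 1.51 CPM per kb, and Psmd9, a chaperone of the base, the lowest at 2.74 ± 0.468 CPM per kb (SD, n = 5). By the longest transcript Psmg3 was the lowest (4.07 CPM per kb, with Psmd9 at 7.55), and by the principal transcript Psmd5 (5.09 CPM per kb). The log2FC was 0.0034 for Psmg1 and 0.033 for Psmd9, neither of which passed the test, and 5 of the 7 factors were positive.

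The remaining genes carried few reads. Psma8 and Psmb11, core subunits known from testis and thymus, had at most 4 and 5 counts in a mouse and were not tested. Psme2b had means of 0.925 ± 0.601 CPM (ΔGm15551) and 1.07 ± 0.406 CPM (wild type, SD, n = 5 each). Psmc3ip, a meiotic recombination cofactor that shares only the start of the symbol, had 12 to 45 counts per mouse.

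Other genes of the pathway were read from the same fit. Of 16 genes for the processing, partners and relatives of NRF1, 15 were tested, and so were 10 proteasome partners and 10 genes for ubiquitin and its shuttles. In all 3 lists, 0 genes had an adjusted p under 0.05 and 0 had an unadjusted p under 0.05, with medians of -0.015, -0.051 and 0.018 for the log2FC. Ddi2, the NRF1 protease, had means of 60.6 ± 10.3 CPM (ΔGm15551) and 60.5 ± 5.33 CPM (wild type, SD, n = 5 each). Pomp, the maturation factor of the core, was at 54.2 ± 8.43 and 59.5 ± 8.75 CPM, and Nfe2l2, the related factor of the oxidative stress response, at 50.2 ± 6.84 and 55.1 ± 7.69 CPM. Their log2FC were 0.0027, -0.13 and -0.13.

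The variation between mice was described next. Over the 10 mice, the SD of log2 CPM had a median of 0.15 for the 49 genes and of 0.27 for all genes tested. It was lowest in the alpha ring (median 0.10), the base (0.12) and the lid (0.12), higher in the beta ring (0.16), and higher still in the activators (0.23) and the immunoproteasome genes (0.35), while Nfe2l1 had 0.25. These classes differ in level, and the part of counting error in the order was not tested.

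**Figure D3:**
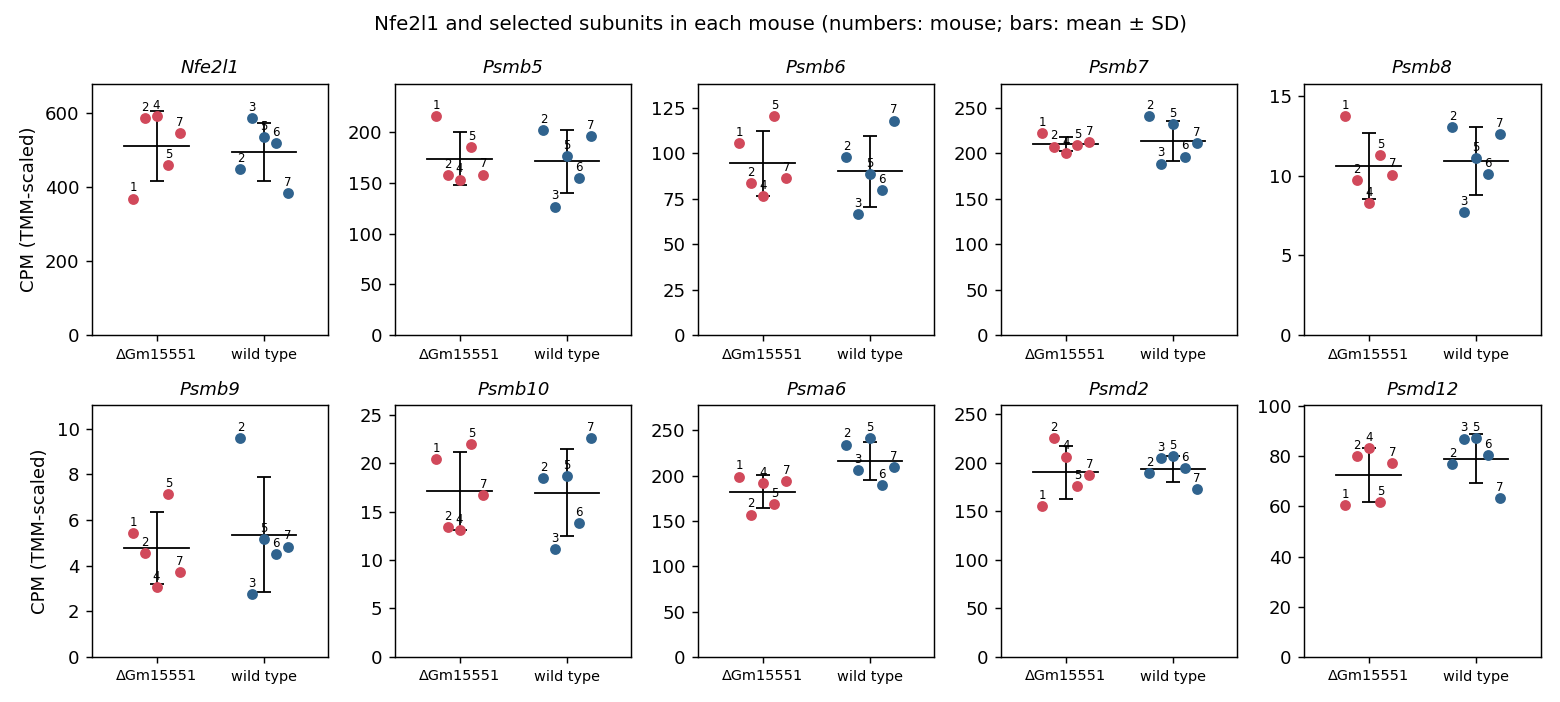
Normalised expression (CPM) of Nfe2l1 and 9 subunits in each of the 10 mice, with the mouse number beside each point and bars for the mean ± SD of 5 mice. ΔGm15551 mouse 1 and wild type mouse 7 are the lowest of their groups for Nfe2l1, Psmd2 and Psmd12, and lie in the upper part of their groups for Psmb5 and Psmb6.

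Nfe2l1 was then compared with the 31 standard subunits across the 10 mice, by a permutation test of the correlation of log2 CPM with 100000 resamples, two-sided, adjusted over the 13731 other genes tested. A negative Pearson r was found for 21 subunits and a positive one for 10. At an adjusted p under 0.05 there were 4 positive subunits of 31 (12.9%), against 15.0% of all genes, and 6 negative subunits (19.4%), against 11.1% of all genes. Over both directions 26.1% of all genes correlated with Nfe2l1 in these mice, so that a call among the subunits was 1 of many in these libraries.

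The 4 positive ones were all of the 19S cap: Psmd2 (r = 0.90, permutation p = 0.000270, rho = 0.78), Psmd12 (r = 0.87), Psmd14 (r = 0.78) and Psmd6 (r = 0.77). The 6 negative ones were 4 genes of the beta ring, Psmb1 (r = -0.91, permutation p = 0.000530, rho = -0.88), Psmb4 (r = -0.88), Psmb5 (r = -0.87, permutation p = 0.000580, rho = -0.90) and Psmb6 (r = -0.83), with the alpha gene Psma7 (r = -0.85) and the ATPase gene Psmc5 (r = -0.78). By Spearman's rho, 5 subunits were called, all negative, against 1.53% of all genes for negative and 1.68% for positive calls. The promoters with the antioxidant response element were on both sides, Psmb5 and Psmb6 with a negative r and Psmc6 and Psmd12 with a positive one.

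**Figure D4:**
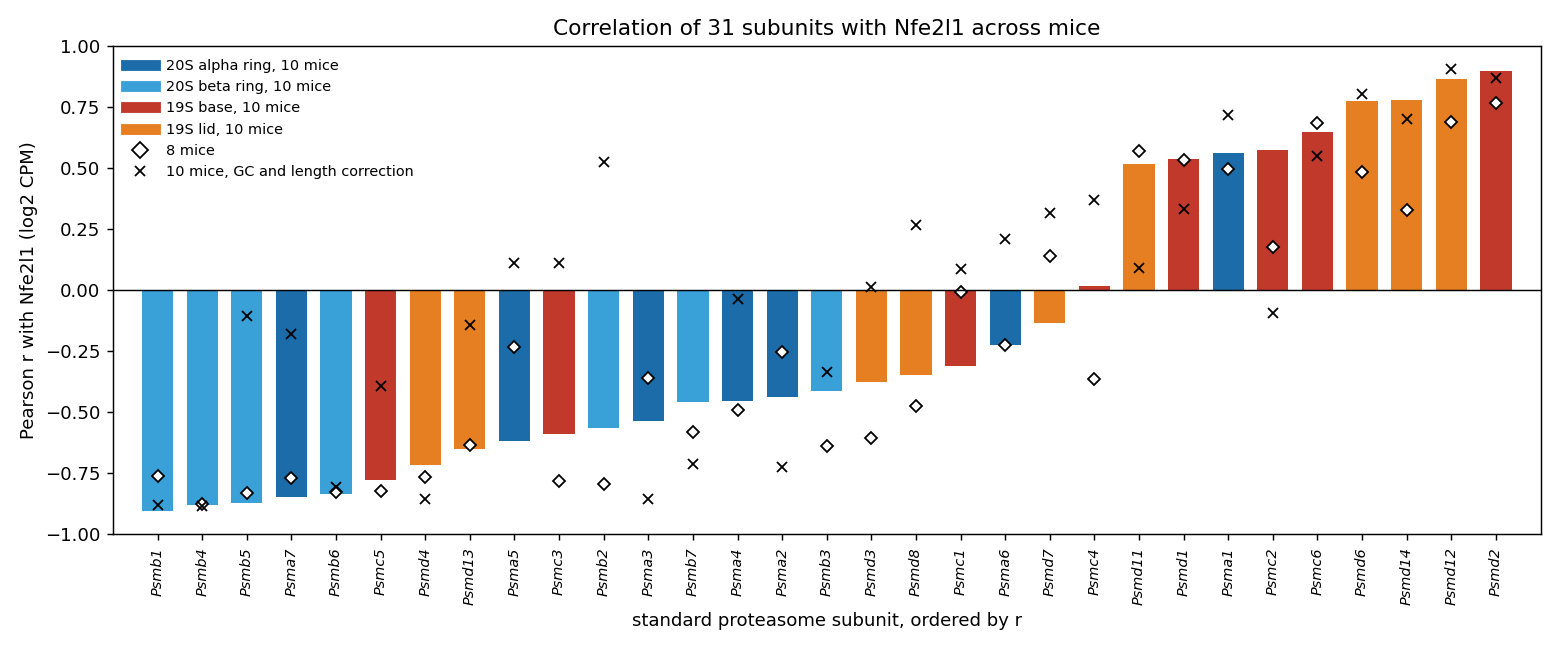
Pearson r of log2 CPM with Nfe2l1 for the 31 standard subunits over 10 mice (bars, coloured by class), without the 2 mice farthest from the median of Nfe2l1 (open diamonds, 8 mice) and over 10 mice after correction for GC content and transcript length (crosses). The 6 lowest bars are 4 beta ring genes, Psma7 and Psmc5, the 4 highest are 19S genes, and several bars change sign after the correction.

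The number of calls changed when mice were left out, over all genes as over the subunits. Without ΔGm15551 mouse 1 and wild type mouse 7, which had the lowest Nfe2l1 and are among the 3 mice with the most muscle counts, 0 subunits and 0 of all genes were called, while r became 0.77 for Psmd2, 0.69 for Psmd12, 0.48 for Psmd6 and 0.33 for Psmd14, and lay between -0.88 (Psmb4) and -0.76 (Psmb1) for the 6 negative ones. With wild type mouse 7 alone left out, 4 subunits (12.9%) and 9.9% of all genes were called. With 7 mice, after leaving out the 3 wild type mice whose animal identifiers in the labels form a separate, higher series or the 3 muscle-rich mice, 0 subunits and 0 genes were called. The 4 positive subunits then had r of 0.69 to 0.90 in the first set of 7 mice and of 0.46 to 0.76 in the second, and the 6 negative ones of -0.95 to -0.79 and of -0.86 to -0.72. A negative r was found for 21 subunits in each. These were not all the same, since Psmd7 turned positive and Psmc4 negative. Fewer mice also leave a permutation test with larger p-values.

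The libraries also differed in the kind of transcript they favoured. The rank correlation across genes between a mouse's deviation from the mean and transcript length ran from -0.29 (ΔGm15551 mouse 5) to 0.24 (wild type mouse 3), and that with GC content from -0.49 (wild type mouse 3) to 0.56 (ΔGm15551 mouse 5). Across the 31 subunits, r with Nfe2l1 followed length (rho = 0.37) and GC content (rho = -0.51), as it did over all genes (rho = 0.23 and -0.24), which describes genes that are not independent of each other. After correction of each library for both, 8 subunits (and 24.6% of all genes) were called, 3 with a positive and 5 with a negative r. These 8 were not all among the 10 called before. Of all 31 subunits, 17 had a positive r and 14 a negative one. Of the 10 subunits called before it, 7 had values of 0.70 to 0.90 (Psmd14, Psmd6, Psmd2 and Psmd12) or of -0.88 to -0.81 (Psmb1, Psmb4 and Psmb6), while Psmb5 moved to -0.11, Psma7 to -0.18 and Psmc5 to -0.39.

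Genes of the same ring were compared pair by pair across the 10 mice, as a description. All 21 pairs of beta ring genes had a positive r, with a median of 0.77, and the 21 pairs between the beta ring and the immunoproteasome genes had a median of 0.79. The alpha ring had a median of 0.52, the base 0.046 and the lid -0.0083, and pairs of all genes tested had a median of -0.001. After the correction for GC content and length, these medians were 0.41 in the beta ring, 0.70 between the beta ring and the immunoproteasome genes, 0.080 in the alpha ring, 0.29 in the base and 0.28 in the lid.

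**Figure D5:**
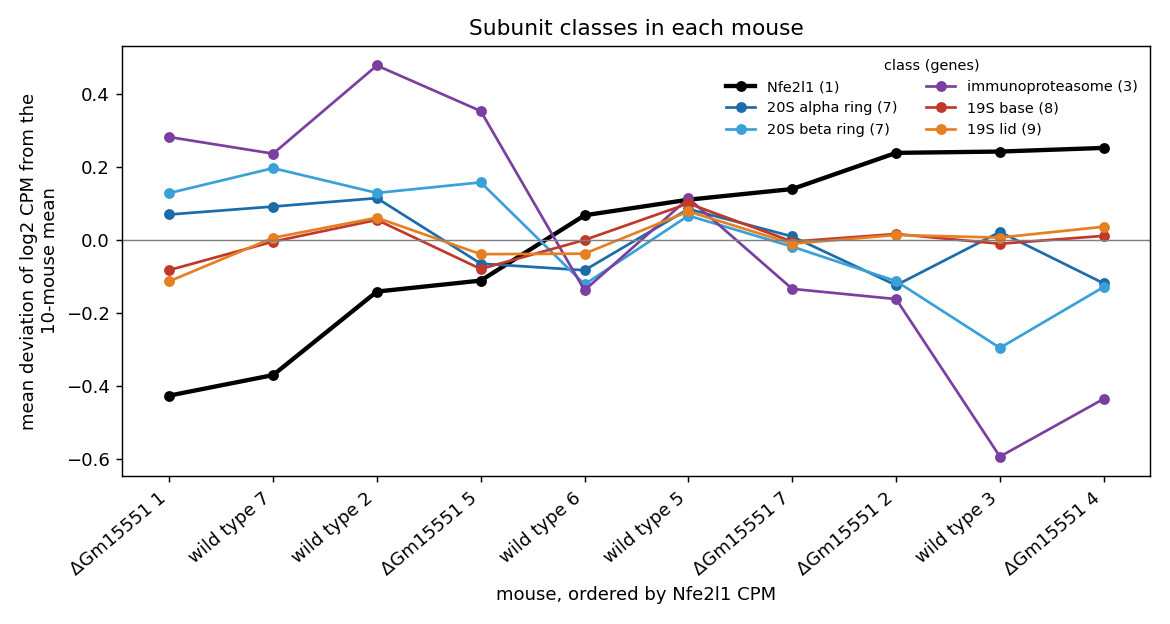
Mean deviation of log2 CPM from the 10-mouse mean for Nfe2l1 and 5 classes of subunits in each mouse, ordered by Nfe2l1 from left to right, with the number of genes of each class in the key. The beta ring and immunoproteasome lines fall from left to right, and the 19S base and lid lines stay between -0.11 and 0.10.

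Averaged over its 7 genes, the beta ring was highest in wild type mouse 7 (0.20 above its mean, in log2 CPM) and ΔGm15551 mouse 5 (0.16) and lowest in wild type mouse 3 (-0.30). The immunoproteasome genes were highest in wild type mouse 2 (0.48) and lowest in wild type mouse 3 (-0.59). Wild type mouse 3 was also the library that most favoured long transcripts and those of low GC content, and the part of this property in its low values was not tested. Averaged over all 31 standard subunits, no mouse lay further than 0.087 from the mean.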

How the data were processed

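Poly A RNA of iBAT from 10 mice was sequenced in paired ends with a kit that does not mark strand. Per the labels and the study's methods, reads passed a quality filter (cutadapt) before salmon assigned them to the GENCODE M22 transcriptome (GRCm38), alone or with RNAcentral 5 added, and the tools' versions are not given in the sources used here. The values deposited by the authors were estimated counts (expected counts) per gene, whole numbers summed and rounded by a step that is not stated, and salmon shares reads between similar transcripts by estimated abundance. Columns were matched to mice by name, and a label gives each mouse its own identifier.

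The analysis used edgeR 4.0.16 under R 4.3.3. All 54347 records entered filterByExpr (minimum count 10), which kept 13732 genes. TMM scaling and a robust quasi-likelihood fit with genotype as the only term followed, with Benjamini-Hochberg adjustment over all genes tested and a threshold of 0.05. Intervals came from limma 3.58.1 and DESeq2 1.42.0 was an alternative. The log2 CPM had a prior count of 2. Lengths, positions and GC content were taken from GENCODE M21 on GRCm38, where 99.5% of gene IDs were found. Correlations used Python 3.11.15 and numpy 2.4.6 with 100000 permutations. They were planned with an adjustment over the subunits alone and were adjusted over all genes tested instead. Pairs of mice within a group differed far beyond counting error, so that no library was counted as a duplicate. The fit and the correlation script were tested on simulated data.

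Values were given for Nfe2l1, the catalytic and immunoproteasome subunits, the genes highest and lowest per length in each class, and any gene past an unadjusted p of 0.05 or with groups that do not overlap, while Psma8, Psmb11, Psme2b and Psmc3ip were to be given by their counts. The rule was applied to merged exon lengths. Psmd2, Psmd12, Psmb4, Psma7, Psmd6, Psmd14, Psme3, Psme4 and Psmg4, those named for a change of sign (Psmd7 and Psmc4), for a promoter motif (Psmc6) or for a level with another length (Psmc2, Psmc6, Psmd4, Psmd5 and Psmg3) fall outside this rule and were named after their values were seen. The genes, lists and tests were chosen with earlier results of these data known. One gene of the immune cell list is not reported here. Alternatives were other scalings, filters and tests, a replicate block, mice left out, a muscle covariate, other lengths and a lowess correction for GC content and length. The columns used held counts only, and depth limits the precision of low genes. A count of 0 allows up to 3 counts in a library, for counting error only.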

Additional observations from a re-analysis of the deposited data

Results flagged for a closer look

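Wild type mouse 7 stood apart for Psmd14, the deubiquitinase of the lid, with 38.3 CPM, while the other 4 wild type mice lay between 51.7 and 56.9 CPM. The gap to the nearest mouse took 0.724 of the range of the group. This mouse also had 0 counts of Gm15551 and the largest share of counts on skeletal muscle genes (0.263% of its library), and the part of either in the low value was not tested. In all, 98 groups of 5 mice were examined (49 genes in 2 genotypes) and 1 was found to hold such a mouse, where chance gives about 1 in 20, or 4.9 groups.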

How the results depend on the processing

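The count of 0 proteasome genes at an adjusted p under 0.05, the 0 of the pathway genes and the negative median log2FC held under every alternative run: library totals alone, DESeq2 size factors, a filter of 1 CPM in 5 mice or none, limma-voom, the DESeq2 Wald test, a muscle covariate, 6 mice, 7 mice without wild type mice 5, 6 and 7 (whose animal identifiers in the labels form a separate, higher series), the correction for GC content and length, and each mouse left out. The median was -0.080 with the replicate block in 6 mice, -0.078 in the same 6 mice without it, -0.0085 in 7 mice, and -0.056 (without wild type mouse 3) to -0.013 (without wild type mouse 7) with 1 mouse left out. The smallest adjusted p of a proteasome gene over these was 0.835. The count at an unadjusted p under 0.05 fell from 1 to 0 with library totals alone, with no filter and in the 7 mice of the lower series, and was 0 to 1 with 1 mouse left out. Of the 17 genes other than Nfe2l1 named by the rule, Psma6, Psmd1 and Psmd11 kept a negative log2FC under all 21 alternatives, with -0.40 to -0.20 for Psma6, -0.20 to -0.13 for Psmd1 and -0.21 to -0.083 for Psmd11, and the other 14 changed direction under at least 1. Psme2b, Psme3, Psme4 and Psmg4 were not followed over the alternatives. The cause was not tested.

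Replicate numbers 2, 5 and 7 occur in both groups. Mice of the same number did not deviate together (r = -0.065, 0.054 and -0.39), which gave no sign that the numbers pair the mice. So few values, which also hold differences between libraries, cannot exclude a pairing. With the replicate block in these 6 mice, 0 of the 49 proteasome genes had an unadjusted p under 0.05, against 2.88% of all genes, and the log2FC was 0.22 for Nfe2l1, -0.40 for Psma6, -0.20 for Psmb5, -0.080 for Psmb6, -0.22 for Psmb10, -0.027 for Psmd8, -0.0062 for Psmg1 and -0.10 for Psmd9. In the same 6 mice with genotype only it was 0.22 for Nfe2l1, -0.40 for Psma6, -0.20 for Psmb5, -0.069 for Psmb6, -0.19 for Psmb10, -0.027 for Psmd8, -0.10 for Psmd9 and 0.00080 for Psmf1. Psmg1 was at -0.0014 with DESeq2 size factors, -0.0025 in the DESeq2 Wald test and -0.00074 in limma-voom. In the 7 mice of the lower series the log2FC was -0.022 for Nfe2l1, 0.033 for Psmb8, 0.054 for Psmb1, 0.066 for Psmc5, -0.0085 for Psme2 and 0.0038 for Psmf1. After the correction for GC content and length, chosen after seeing the data, it was -0.033 for Psmb5, 0.032 for Psmb7, -0.030 for Psmb10, 0.0096 for Psma2, -0.0085 for Psmd8, -0.0056 for Psme2 and -0.015 for Psmg1.

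With 1 mouse left out in turn, the log2FC ranged from -0.036 to 0.14 for Nfe2l1, -0.068 to 0.089 for Psmb5, -0.036 to 0.18 for Psmb6, -0.064 to 0.023 for Psmb7, -0.15 to 0.038 for Psmb8, -0.35 to 0.15 for Psmb9 and -0.098 to 0.14 for Psmb10. It ranged from -0.083 to 0.031 for Psmb1, -0.072 to 0.017 for Psmc5, -0.016 to 0.036 for Psmd8, -0.037 to 0.086 for Psme2, -0.073 to 0.025 for Psmf1, -0.064 to 0.051 for Psmg1 and -0.027 to 0.13 for Psmd9.

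The median over the 31 standard subunits in a mouse, averaged over the 5 wild type mice, was 39.6 CPM per kb with merged exons, 56.7 with the longest transcript and 66.9 with the principal transcript (added after seeing the data), since the lengths differ. Of the 31 subunits, 10 correlated with Nfe2l1 at an adjusted p under 0.05. This became 11 (31.5% of all genes) with the group mean removed, 5 by Spearman's rho (3.2%, planned beside Pearson's r), 5 with library totals alone (19%), 8 after the correction for GC content and length (24.6%, added after seeing the data), 4 to 10 with 1 mouse left out (9.9% to 25.5%), and 0, with 0 of all genes, without the 2 mice farthest from the median, in the 7 mice of the lower series or without the 3 mice richest in muscle counts (added after seeing the data).

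Genes with few counts, such as Psme2b, are limited by depth. The values are RNA levels and do not measure proteasome activity, NRF1 processing or protein.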
